A study of Mus musculus with 8 samples.

Results

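Smooth muscle and pericyte genes were examined in mouse gastrocnemius, the large calf muscle, through 9 listed genes. The genes were Acta2, Myh11, Tagln, Cnn1, Lmod1, Rgs5, Pdgfrb, Cspg4 and Notch3. Every probe set whose single gene symbol in the platform annotation was one of these was taken, which gave 18 of the 45101 probe sets and 9 of the 18193 genes with such a probe set. Total RNA had been hybridised to 1 Affymetrix array per sample, 4 labelled GR KO and 4 labelled wild type (WT). Both groups were of the C57/Bl6J strain, and the series text names the knockout muscles GR(i)skm-/-. GR, the glucocorticoid receptor encoded by Nr3c1, is a hormone-activated transcription factor. The driver, the timing of the deletion, the age and sex of the mice, and any pooling are not stated in these sources. The labels do not say whether mural cells kept the receptor.

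Mural cells wrap blood vessels. Smooth muscle cells surround arteries and arterioles and contract through an apparatus of smooth muscle actin and myosin, whose genes are switched on by serum response factor (SRF) and myocardin at CArG boxes. Pericytes sit on capillaries, are recruited by PDGF-B from endothelial cells through the receptor Pdgfrb, and depend, like smooth muscle cells, on Notch3 signalling. In skeletal muscle these cells set vessel tone and capillary stability, and they are a small part of a tissue made mostly of myofibres.

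The promoter of Acta2 is shown because Acta2 is the standard target of SRF in this list and its promoter held matches to several of the motifs searched. The window runs 250 bases before to 50 after a start position assigned to the gene (RefSeq, GRCm38.p6, chr19:34255324-34255623, minus strand, written 5′ to 3′ along the gene). That position is not the outer end of the gene. The RefSeq interval of Acta2 reaches 34255585, so most of the window lies within the interval. Capitals mark CArG boxes with 1 C or G in a core that otherwise holds A and T.

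Acta2: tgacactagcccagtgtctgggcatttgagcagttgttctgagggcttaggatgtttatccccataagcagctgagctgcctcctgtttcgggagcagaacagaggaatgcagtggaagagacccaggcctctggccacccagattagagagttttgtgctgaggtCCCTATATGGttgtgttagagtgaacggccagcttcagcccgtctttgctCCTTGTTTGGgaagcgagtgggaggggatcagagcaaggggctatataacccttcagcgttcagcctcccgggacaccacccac

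The promoter table held 6 of the 9 genes: Acta2, Cnn1, Lmod1, Rgs5, Cspg4 and Notch3. A CArG box with an unbroken core was found on either strand in 0 of these 6 windows and in 1.63% of all 32851 windows of the same length. The form with 1 C or G in the core, a search added after the promoters had been seen, was found in Acta2 alone of the 6 and in 8.5% of all windows. The full palindromic glucocorticoid response element was in 0 of the 6 and in 0.00913% of all windows. A single arm of it, TGTTCT, occurred in Acta2 alone of the 6 and in 19.0% of all windows, at bases 35 to 40 of the window and, on the other strand, at bases 97 to 102. The RBPJ motif TGGGAA, which Notch signalling uses, was also in Acta2 alone of the 6 and in 25.6% of all windows. It lay at bases 224 to 229 and overlapped the second CArG-like match at bases 217 to 226. A match of letters describes a sequence, and none of these matches was tested as a binding site.

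The arrays were checked first. Nr3c1 had 6 probe sets. Its brightest, 1421867_at, had signals of 222, 169, 120 and 105 on the GR KO arrays, against 289, 213, 287 and 513 on the WT arrays, so that the groups overlapped (log2 fold change -1.07 ± 0.29 SE, limma adjusted p = 0.777). The probe set 1460303_at had 134, 79, 76 and 94 on the GR KO arrays, against 377, 307, 307 and 352 on the WT arrays, with no overlap (-1.84 ± 0.20 SE, limma adjusted p = 0.0240 over probe sets). The groups did not overlap for 1457635_s_at either (-1.96 ± 0.25 SE, limma adjusted p = 0.0354). They overlapped for 1421866_at (-0.38 ± 0.46 SE), for 1453860_s_at (-0.32 ± 0.29 SE) and for 1431378_at, which lay under the signal filter. Which of these probe sets target deleted sequence was not analysed here, which limits them as a check of the labels. All 14 skeletal myofibre markers listed for the tissue were above the signal filter (below), with summed signals of 127971 to 196808 on GR KO arrays and 141369 to 289541 on WT arrays. The median signal was 18 to 24 on GR KO arrays and 19 to 26 on WT arrays. WT replicate 4 stood apart: its spike-in signal was 1369, against 384 to 485 on the other WT arrays, its Gapdh 3′ to 5′ ratio was 1.20, against 0.797 to 0.915 on the other 7 arrays, and it gave the highest myofibre sum. The Actb 3′ to 5′ ratio did not set it apart, at 1.07 to 1.84 on GR KO arrays and 0.991 to 1.73 on WT arrays, with 1.73 on WT replicate 4. Over the genes tested, GR KO replicate 1 and WT replicate 4 deviated from their group means in the same way (r = 0.58 across genes, which are not independent replicates). Results are therefore also given without WT replicate 4, which leaves GR KO replicate 1 in its group. For the members, values without both arrays are given as well. In a bulk sample, fewer cells of a type and less RNA per cell cannot be told apart.

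None of the members differed between GR KO and WT muscle past the threshold. Each gene was represented by its brightest probe set over the 8 arrays. Genes whose mean log2 signal exceeded that of the median probe set, equal to a signal of 19.4, were tested with limma. This signal filter kept 7 of the 9 members, and Cnn1 and Lmod1 were dimmer. In limma over the 11062 genes tested, 0 of the 7 members passed an adjusted p of 0.05 (Benjamini-Hochberg; lowest adjusted p = 0.880), where 0.0542% of all genes did, and 0 of the 7 had an unadjusted p under 0.05, where 4.63% of all genes did. Of the 18 member probe sets, 0 had signals that did not overlap between the groups. The share was 2.58% among all genes tested, each counted by its brightest probe set. That unit differs, since the 18 include further probe sets of the same gene and 5 below the filter. Of the 7 tested members, 5 had a log2 fold change above 0, where 52.2% of all genes did. The median log2 fold change was 0.22 over the 7 members and 0.013 over all genes tested. Without WT replicate 4 the median of the 7 members was 0.042. Without both WT replicate 4 and GR KO replicate 1, an alternative chosen after seeing the data, it was 0.13. In that setting the log2 fold change was 0.49 for Acta2, 0.34 for Tagln, 0.26 for Notch3, 0.13 for Pdgfrb and 0.033 for Cspg4. Myh11 was then at 0.050 and Rgs5 at -0.19.

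**Figure D1:**
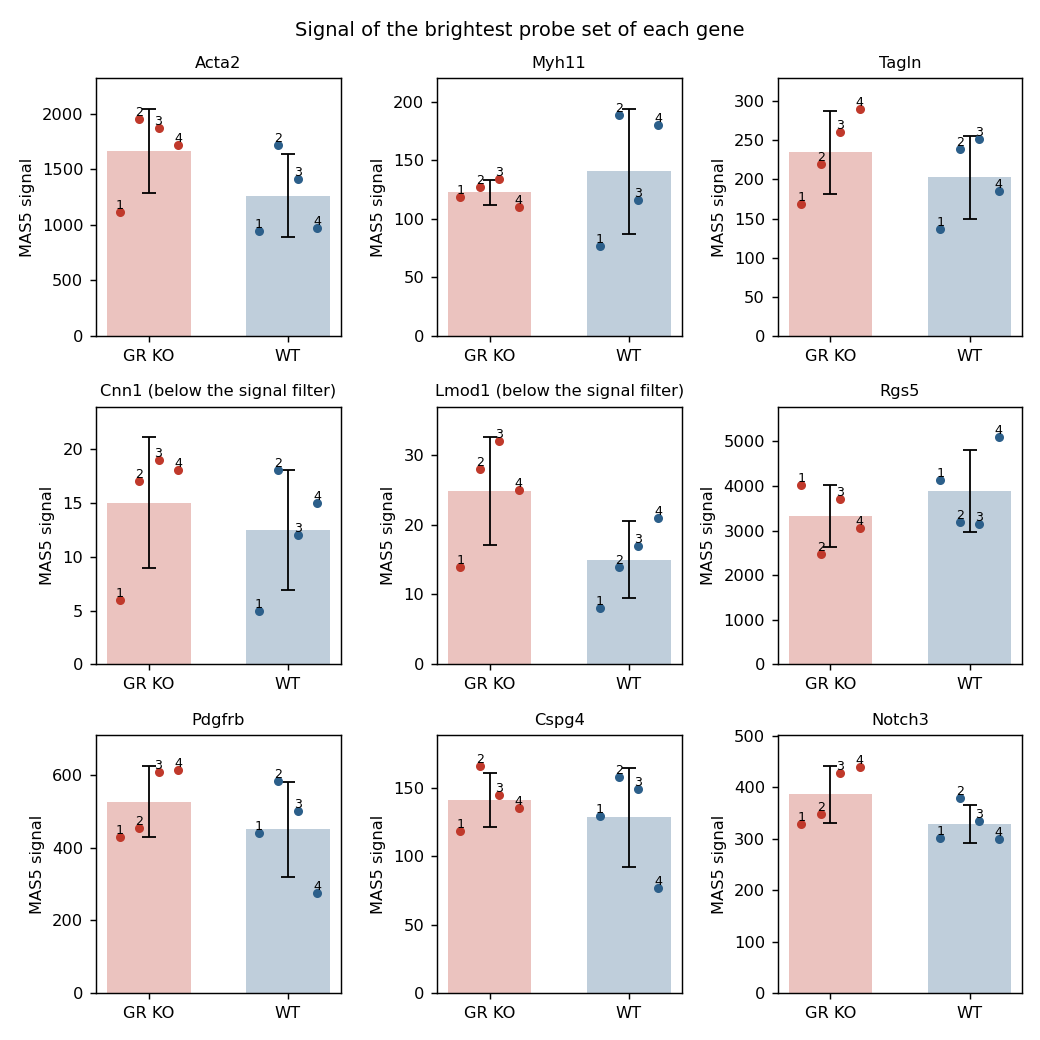
MAS5 signal (linear axis from 0) of the brightest probe set of each of the 9 genes. Bars are means of 4 arrays, error bars are SD, and points are arrays marked with their replicate number, with GR KO on the left of each panel and WT on the right. The groups overlapped for every gene, and replicate 1 was the lowest WT array for Acta2, Myh11, Tagln, Cnn1 and Lmod1.

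The contractile apparatus came first. Acta2, the smooth muscle alpha-actin that builds the thin filaments, had signals of 1116, 1948, 1874 and 1720 in GR KO muscle, against 941, 1719, 1409 and 970 in WT muscle. The GR KO arrays other than replicate 1 lay above every WT array, though the lowest of them, at 1720, barely exceeded the highest WT signal, 1719. GR KO 1 lay within the WT range, and so the groups overlapped. In the limma fit it had a log2 fold change of 0.42 ± 0.23 (SE; 95% interval -0.10 to 0.93; adjusted p = 0.880), so the interval reached from 0.935-fold to 1.90-fold. The suffix _s_at of this probe set, 1416454_s_at, marks probes shared by more than 1 transcript in Affymetrix naming. The other Acta2 probe sets were dim and opposite in sign, with log2 fold changes of 0.84 ± 0.50 and -1.15 ± 0.90 (SE, no adjusted p). When the 3 probe sets were averaged, the log2 fold change of Acta2 was 0.035. Without WT replicate 4, its brightest probe set gave 0.31.

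Myh11, the smooth muscle myosin heavy chain that pulls on these filaments, had signals of 119, 127, 134 and 110 in GR KO muscle, against 77, 189, 116 and 180 in WT muscle. The 4 GR KO signals lay inside the WT range. The mean was 122.5 ± 10.3 in GR KO muscle and 140.5 ± 53.4 in WT muscle (SD, n = 4 each). The log2 fold change was -0.11 ± 0.26 (SE; 95% interval -0.68 to 0.46; limma adjusted p = 0.940), and it was 0.037 without WT replicate 4. The log2 SD among arrays was 0.12 in GR KO muscle and 0.61 in WT muscle, a difference in spread that was not tested. A further probe set, 1418122_at, was dim, at 2 to 19 in GR KO muscle and 2 to 26 in WT muscle.

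Tagln encodes transgelin, an actin-binding protein of the smooth muscle cytoskeleton. Its signals were 168, 219, 261 and 290 in GR KO muscle, against 136, 239, 251 and 185 in WT muscle. Replicate 1 was the lowest array of each group. Its log2 fold change was 0.22 ± 0.23 (SE; 95% interval -0.28 to 0.72; limma adjusted p = 0.881). It was 0.19 without WT replicate 4, 0.042 without WT replicate 1 and 0.37 without GR KO replicate 1.

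Cnn1 and Lmod1 lay under the signal filter, where MAS5 signals are noisy, and did not enter the main gene test. In the gene test without that filter, the limma adjusted p was 0.938 for Cnn1 and 0.902 for Lmod1. Their SEs and intervals below come from a separate limma fit over all probe sets without the filter. Cnn1 encodes calponin 1, which binds actin and restrains myosin activity. Its signals were 6, 17, 19 and 18 in GR KO muscle, against 5, 18, 12 and 15 in WT muscle, and the groups covered nearly the same range. Its log2 fold change was 0.28 ± 0.56 (SE; 95% interval -0.999 to 1.55). Lmod1 encodes leiomodin 1, which nucleates actin filaments in smooth muscle. Its signals were 14, 28, 32 and 25 in GR KO muscle, against 8, 14, 17 and 21 in WT muscle. The GR KO arrays other than replicate 1 were above every WT array, and the log2 fold change was 0.74 ± 0.42 (SE; 95% interval -0.20 to 1.69).

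The contractile genes shared their low arrays. WT replicate 1 was the lowest WT array for 5 of the 5 contractile genes, and GR KO replicate 1 the lowest GR KO array for 4 of the 5, all but Myh11. The share of all genes tested that were lowest on these arrays was not counted. For Acta2, WT replicate 4 was nearly as low as WT replicate 1, at 970 against 941. The low GR KO array was not particular to contractile genes. The brightest probe sets of Pdgfrb, Cspg4 and Notch3 were also lowest on GR KO replicate 1 among GR KO arrays, but on WT replicate 4 among WT arrays. Each gene's log2 signal was set against its own mean over the 8 arrays. The mean over the 5 genes was then -0.44 on GR KO replicate 1 and between 0.30 and 0.44 on the other GR KO arrays. It was -0.89 on WT replicate 1 and between -0.0094 and 0.24 on the other WT arrays. Over the 3 contractile genes above the filter, without Cnn1 and Lmod1, the mean was -0.26 on GR KO replicate 1 and 0.17 to 0.26 on the other GR KO arrays. Over these 3 it was -0.65 on WT replicate 1 and -0.079 to 0.34 on the other WT arrays. For Pdgfrb, Cspg4 and Notch3 the mean was -0.14 on GR KO replicate 1 and 0.083 to 0.26 on the other GR KO arrays. It was -0.12 on WT replicate 1 and -0.60 on WT replicate 4. The labels do not say that arrays with the same replicate number were handled together, and over all genes tested the deviations of the arrays numbered 1 had a correlation of -0.19 across genes. Fibroblast and matrix markers shared the low GR KO array but not the low WT array, with a summed signal of 17511 on GR KO replicate 1 and 22634 to 25861 on the other GR KO arrays. The sum was 14875 on WT replicate 1, 20321 and 20505 on WT replicates 2 and 3, and 9684 on WT replicate 4. All 17 such markers with a probe set were above the filter and none was listed at 0, and their part in the result was not tested. Other marker sums were also lowest among GR KO arrays on replicate 1. The Schwann cell sum was 1388 there and 2705 to 4172 on the other GR KO arrays, and 1548 on WT replicate 1 and 1040 on WT replicate 4. The myofibre sum was 127971 there and 150773 to 196808 on the other GR KO arrays, and 156541 on WT replicate 1. The erythrocyte sum was 130 there and 197 to 235 on the other GR KO arrays, and 163 on WT replicate 1. The endothelial sum was lowest on other arrays: it was 15307 on GR KO replicate 1 and 13411 to 18608 over the GR KO arrays, and 15072 on WT replicate 1 and 13193 to 15265 over the WT arrays.

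**Figure D2:**
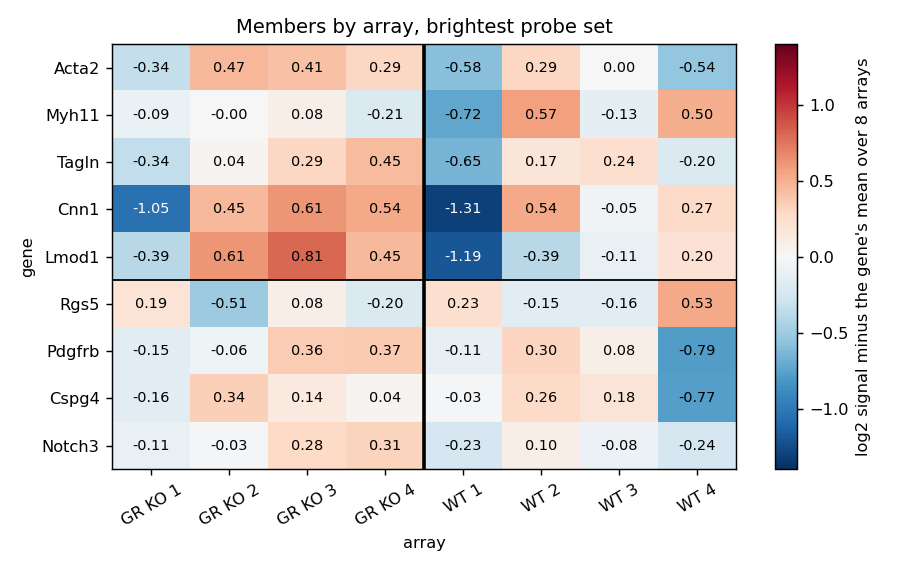
Log2 signal of each gene's brightest probe set minus that gene's mean over the 8 arrays, with genes in rows (5 contractile genes above the line, Rgs5 and the 3 surface receptor and proteoglycan genes below it) and arrays in columns, GR KO left of WT. Cnn1 was at -1.05 on GR KO 1 and -1.31 on WT 1, while Pdgfrb and Cspg4 were at -0.79 and -0.77 on WT 4.

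Among the pericyte genes, Pdgfrb encodes the receptor through which PDGF-B recruits mural cells. Its signals were 430, 456, 611 and 615 in GR KO muscle, against 440, 586, 503 and 276 in WT muscle. WT replicate 4 lay far below the other arrays, and the remaining WT signals lay inside the GR KO range. The log2 fold change was 0.26 ± 0.23 (SE; 95% interval -0.24 to 0.76; limma adjusted p = 0.881) with all arrays and 0.042 without WT replicate 4. The further Pdgfrb probe set, 1417148_at, gave 0.24 ± 0.20 (SE), with WT replicate 1 lowest at 124 and WT replicate 4 next at 131.

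Cspg4 encodes the NG2 proteoglycan on the pericyte surface. Its signals were 118, 166, 145 and 135 in GR KO muscle, against 129, 158, 149 and 77 in WT muscle. WT replicate 4 was again the lowest of the 8 arrays. The log2 fold change was 0.18 ± 0.23 (SE; 95% interval -0.32 to 0.68; limma adjusted p = 0.900), and it was -0.049 without that array. The further probe set, 1423341_at, gave 0.23 ± 0.23 (SE), also with WT replicate 4 lowest.

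Notch3 encodes the Notch receptor of mural cells, which is activated by ligands on neighbouring cells. Its signals were 329, 348, 429 and 439 in GR KO muscle, against 302, 379, 334 and 300 in WT muscle. GR KO replicates 3 and 4 lay above all WT arrays, and the groups overlapped through the others. With all arrays the log2 fold change was 0.23 ± 0.15 (SE; 95% interval -0.10 to 0.55; limma adjusted p = 0.880) and 0.19 without WT replicate 4. Its interval was the narrowest of the 7 tested members, and its within-group log2 SD of 0.19 was lower than that of the other 6 (0.32 to 0.44) and than the median of all genes tested (0.29). The further Notch3 probe set, 1421964_at, showed no such offset, at 114.25 ± 19.2 in GR KO muscle and 113.5 ± 16.8 in WT muscle (SD, n = 4 each; log2 fold change 0.0053 ± 0.18 SE).

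Rgs5 encodes a GTPase-activating protein that dampens G protein signalling in pericytes. Its brightest probe set, 1417466_at, had signals of 4031, 2474, 3721 and 3061 in GR KO muscle, against 4126, 3189, 3153 and 5093 in WT muscle. WT replicate 4 was the highest array and GR KO replicate 2 the lowest. The log2 fold change was -0.22 ± 0.20 (SE; 95% interval -0.67 to 0.22; limma adjusted p = 0.881) and -0.085 without WT replicate 4.

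The 4 Rgs5 probe sets did not order the arrays alike. Probe set 1420942_s_at had signals of 287, 65, 76 and 198 in GR KO muscle, against 153, 105, 230 and 385 in WT muscle, and its highest array was also WT replicate 4. Probe sets 1420940_x_at and 1420941_at had WT replicate 4 as their lowest WT array, at 228 and 375. The log2 fold changes were -0.59 ± 0.50 for 1420942_s_at, 0.17 ± 0.16 for 1420940_x_at and 0.041 ± 0.19 for 1420941_at (SE), with limma adjusted p-values of 0.963, 0.963 and 0.983 over the 22518 probe sets above the filter. Of the 13 member probe sets above the filter, 0 passed in that fit, where 0.0222% of all probe sets did, and 10 had a log2 fold change above 0, where 47.8% of all did. The direction for Rgs5 therefore depended on the probe set.

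**Figure D3:**
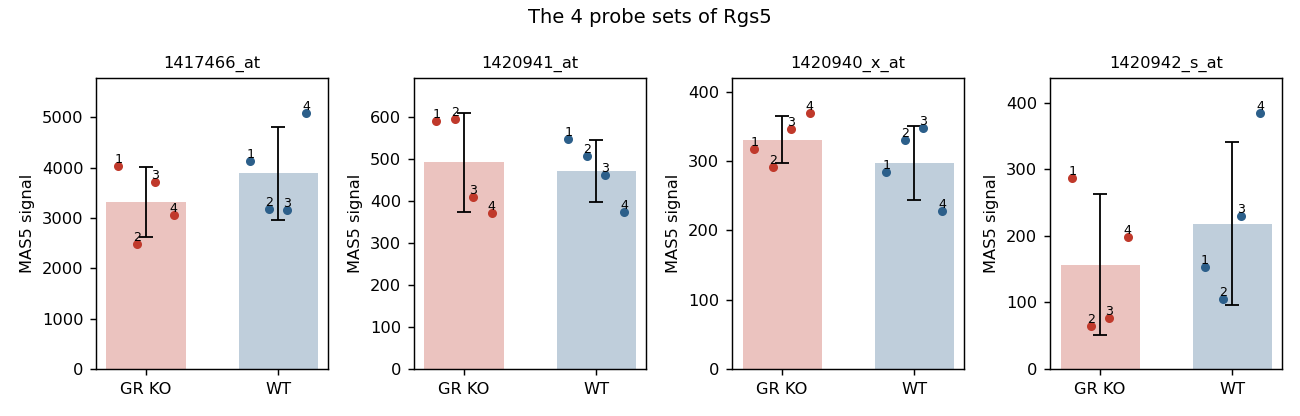
MAS5 signal (linear axes from 0) of the 4 Rgs5 probe sets, with GR KO left of WT. Bars are means of 4 arrays, error bars SD, and points arrays marked with their replicate number. WT replicate 4 was the highest WT array for 1417466_at (5093) and 1420942_s_at (385) and the lowest for 1420941_at (375) and 1420940_x_at (228).

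The genes whose log2 signal followed Rgs5 and Myh11 most closely over the 8 arrays were not members. For Rgs5 they were Anapc10 (Pearson r = 0.97, Spearman rho = 0.90), Stxbp6 (r = 0.96, rho = 0.98) and Tmtc4 (r = 0.96, rho = 0.95). Anapc10 had signals of 108, 41, 67 and 55 on GR KO arrays, against 96, 54, 62 and 167 on WT arrays, with WT replicate 4 and GR KO replicate 1 highest. For Myh11 they were Ints7 (r = 0.96, rho = 0.98), Clasrp (r = 0.95, rho = 0.90) and Gga3 (r = 0.95, rho = 0.90). Among the 100 genes most like each, 0 were other members, a count that tells little because few of the 11062 genes tested were members. Among the other tested members, r with Myh11 ran from -0.22 for Cspg4 to 0.37 for Tagln. With Rgs5 it was 0.077 for Myh11 and negative for the rest, from -0.48 for Notch3 to -0.86 for Cspg4. The correlations of the 3 genes named for each were the highest of 11062. None of these correlations carries a test, and all values of an array share its scaling and RNA.

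**Figure D4:**
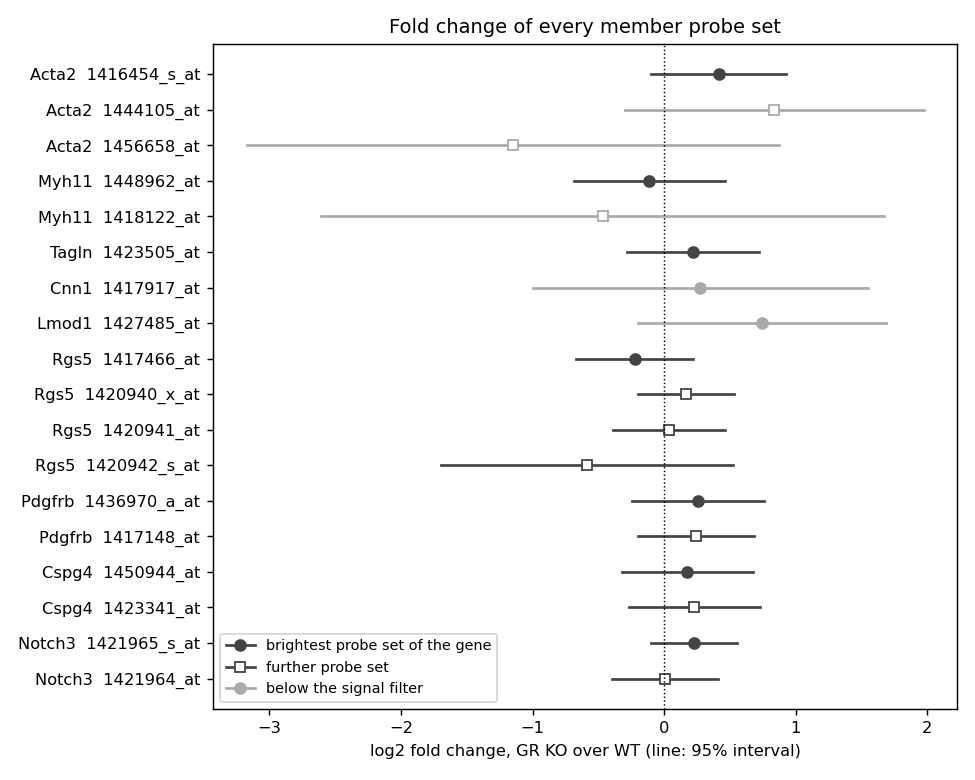
Log2 fold change (GR KO over WT) of the 18 member probe sets, with 95% intervals from limma. Circles are the brightest probe set of each gene, open squares are further ones, and grey marks those below the signal filter. Every interval covered 0.

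Other genes of the mural cell programme, from lists chosen with earlier results of these data known, also gave no calls. Of 29 tested contractile and cytoskeletal genes of smooth muscle, several of which myofibres also express, 0 passed and 18 had a log2 fold change above 0 (median 0.055, and 0.12 without WT replicate 4). The lowest p-value was that of Npnt, nephronectin, a matrix ligand of an integrin of smooth muscle, with signals of 34, 27, 23 and 48 in GR KO muscle, against 70, 70, 68 and 61 in WT muscle. The groups did not overlap, with a log2 fold change of -1.08 ± 0.24 (SE; limma adjusted p = 0.515). Further Npnt probe sets above the filter gave -0.40 and -0.16. The focal adhesion gene Lpp had 0.48 ± 0.20 and the actin-binding Cald1, caldesmon, 0.30 ± 0.15 (SE; limma adjusted p = 0.880 for both), and further Lpp probe sets above the filter ranged between -0.32 and 0.30.

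Of 9 tested regulators of the SRF and myocardin family, 0 passed and 6 had a log2 fold change above 0 (median 0.11, and 0.024 without WT replicate 4). The SRF partner Elk4 had a log2 fold change of -0.32 ± 0.17, Klf4, a repressor of smooth muscle genes, 0.35 ± 0.25, and the coactivator Mrtfb 0.17 ± 0.13 (SE). Further probe sets above the filter gave -0.24 for Elk4, 0.011 for Klf4 and 0.24 for Mrtfb.

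Of 24 other tested pericyte and mural cell genes, 0 passed and 14 had a log2 fold change above 0 (median 0.053, and 0.017 without WT replicate 4). Art3, of the ADP-ribosyltransferase family, had signals of 1043, 740, 933 and 901 in GR KO muscle, against 1464, 1243, 1389 and 1317 in WT muscle. Its groups did not overlap (log2 fold change -0.59 ± 0.14 SE, limma adjusted p = 0.615). A dim further probe set, 1441752_at, did not overlap either but went the other way (1.25 ± 0.47 SE). It had signals of 9, 13, 24 and 11 in GR KO muscle, against 5, 4, 6 and 8 in WT muscle. Angpt1, the ligand by which mural cells stabilise endothelium, had 0.48 ± 0.21, and Cd248, endosialin, 0.43 ± 0.28 (SE).

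The signals that mural cells receive were likewise without calls. Of the 3 tested PDGF genes other than Pdgfrb, Pdgfb, the ligand of Pdgfrb, had signals of 327, 253, 354 and 407 in GR KO muscle, against 251, 325, 374 and 204 in WT muscle (log2 fold change 0.23 ± 0.21 SE, limma adjusted p = 0.881). Pdgfa had 0.10 ± 0.13 and Pdgfra, the receptor of fibroblast-like progenitors, -0.41 ± 0.19 (SE). Of 17 tested Notch receptors, ligands and targets, 0 passed and 11 had a log2 fold change above 0 (median 0.0092, and -0.062 without WT replicate 4). The ligand Jag1 had -0.39 ± 0.22 (SE), with 0.16 ± 0.23 for 1421105_at and -0.46 ± 0.31 for 1421106_at, its further probe sets. The Notch target Nrarp had 0.29 ± 0.16 and the endothelial receptor Notch4 0.39 ± 0.25 (SE). Hey2, a Notch target, was listed at 0 on at least 1 array.

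Of 16 tested genes of TGF-beta, angiopoietin and sphingosine signalling, 0 passed and 9 had a log2 fold change above 0 (median 0.11, and 0.062 without WT replicate 4). The ligand Tgfb2 had signals of 269, 293, 272 and 236 in GR KO muscle, against 186, 223, 189 and 142 in WT muscle. Its groups did not overlap, with a log2 fold change of 0.55 ± 0.16 (SE; limma adjusted p = 0.850), and further probe sets above the filter gave 0.50 and 0.22. The co-receptor Eng, endoglin, had 0.39 ± 0.17 and the receptor Tgfbr1 -0.24 ± 0.13 (SE).

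**Figure D5:**
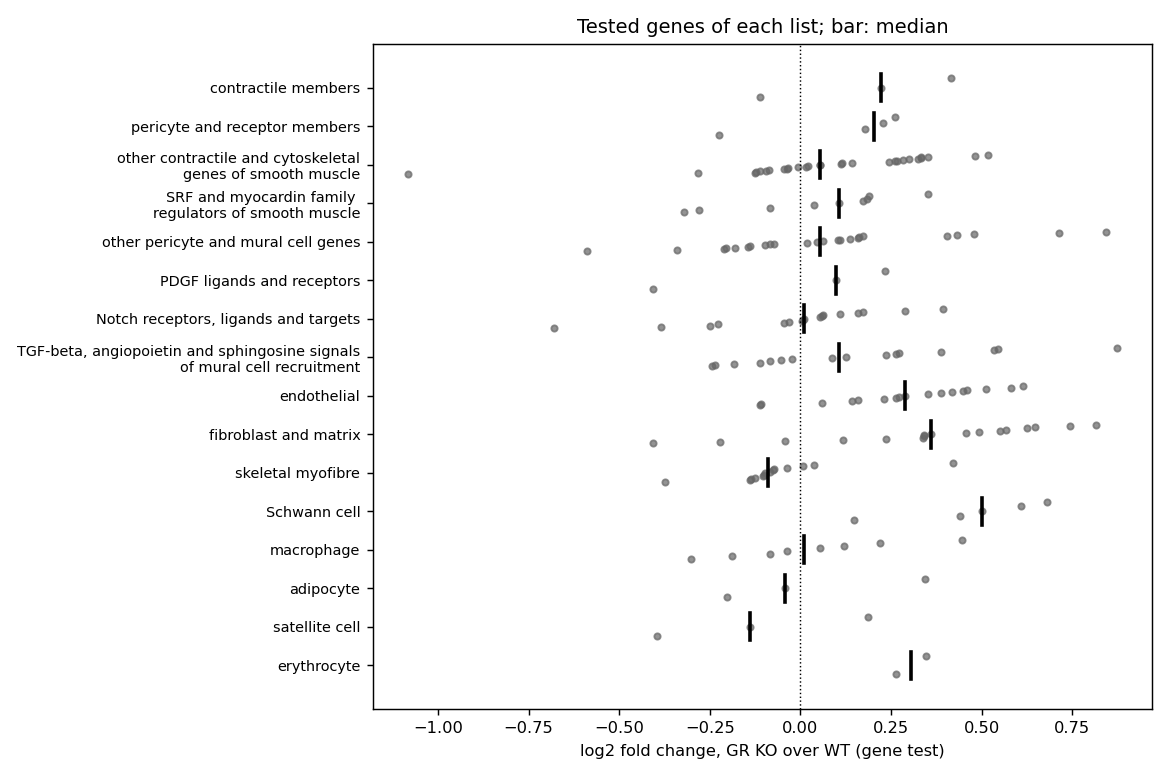
Log2 fold change (GR KO over WT) of each tested gene in the lists of mural cell genes, their signals, and markers of other cell types. Points are genes and bars are list medians. The medians of the member groups were 0.22 for the contractile and 0.20 for the pericyte and receptor genes, and the endothelial median was 0.29.

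Markers of other cell types of the muscle are given beside the members. Of 17 tested endothelial markers, 0 passed and 15 had a log2 fold change above 0 (median 0.29, and 0.24 without WT replicate 4). The junction gene Cldn5 had 0.61 ± 0.20 and the transcription factor Sox18 0.58 ± 0.22 (SE). Of 17 tested fibroblast and matrix markers, 0 passed and 14 were above 0 (median 0.36, and 0.23 without WT replicate 4), with the collagens Col1a2 at 0.74 ± 0.28 and Col3a1 at 0.62 ± 0.27 (SE). The 5 tested Schwann cell markers had a median of 0.50, and 0.27 without WT replicate 4, with the myelin genes Mag at 0.61 ± 0.28 and Mbp at 0.68 ± 0.47 (SE). Further Mbp probe sets above the filter gave 0.38 to 0.77, except 1425264_s_at at -0.48 ± 0.63 (SE). The median was 0.0085 for the 8 tested macrophage markers, -0.041 for the 3 adipocyte markers, -0.14 for the 3 satellite cell markers and 0.30 for the 2 erythrocyte markers. Without WT replicate 4 these medians were -0.034 for macrophage, 0.18 for adipocyte, -0.13 for satellite cell and 0.18 for erythrocyte markers. The myofibre markers had a median of -0.090, and 0.16 without WT replicate 4. The 4 tested pericyte and receptor members had a median of 0.20, and -0.0039 without WT replicate 4, while the 3 tested contractile members had 0.22 and 0.19. Without both WT replicate 4 and GR KO replicate 1, the median was 0.083 for the pericyte and receptor members and 0.34 for the contractile members. What these other cell types contributed to the members' values was not tested.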

How the data were processed

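Biotin-labelled RNA of 8 gastrocnemius samples, 4 GR KO and 4 WT, was measured on Affymetrix arrays. Per the submitters' processing notes the authors ran MAS5, and the table they deposited holds its intensity for each probe set, unlogged and in whole numbers. The version of MAS5 and its scaling target are not stated. The trimmed mean (2% left out at each end) was 99.96 on every array. Of 45101 probe sets, 64 controls were left out, and 34945 of the others had 1 gene symbol, 932 several and 9160 none. Through gene IDs, 34741 of those with 1 symbol were found in RefSeq.

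Log2 signals were used without pseudocount, and zeros were set to the array's smallest positive value (1 value among the genes tested). The gene test was limma 3.58.1 (R 4.3.3) with a mean-variance trend, two-sided, adjusted by Benjamini-Hochberg. No label ties each sample to its own animal, and the p-values then cover the spread between these samples, technical or not. The number of arrays limits the precision. On simulated data of 11062 genes, of which 200 were changed, the test recovered 13.4% of genes changed by 0.58 (log2), 61.4% at 1, 87.4% at 1.5 and 95.4% at 2. The simulated noise was drawn independently for each gene and array. In the real data array deviations were correlated across genes and few genes were called, so these shares may not carry over. Members, lists, tests and alternatives were chosen with earlier results of these data known. Named genes were all members, Nr3c1, up to 3 genes per pathway list and 2 per cell type list with the smallest p, and the 3 genes most like Myh11 and Rgs5. Alternatives were other normalizations, pseudocounts of 2 and 6, other filters, averaged probe sets, other priors, array weights, a replicate block, a spike-in covariate and each array left out.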

Additional observations from a re-analysis of the deposited data

Results flagged for a closer look

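Single arrays lay far from the other 3 of their group in 2 of the 36 groups of 4 signals examined (18 probe sets, 2 groups), by a ratio of gap to range above Dixon's critical value (ratios of 0.846 and 0.882). Chance flags about 1 in 20 groups. Cnn1 had a signal of 6 on GR KO replicate 1, where the other GR KO arrays had 17 to 19, and this dim probe set was similarly low on WT replicate 1, at 5. The dim Myh11 probe set 1418122_at had a signal of 19 on GR KO replicate 2, where the other GR KO arrays had 2 to 4.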

How the results depend on the processing

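For the 7 tested members, 154 fold changes were computed under 22 alternatives, and 0 passed an adjusted p of 0.05 in limma (lowest 0.419, for Acta2 without GR KO replicate 1). Of these, 150 kept their sign. The sign changed for Myh11, to 0.061 without WT replicate 2, 0.037 without WT replicate 4 and 0.050 without WT replicate 4 and GR KO replicate 1, and for Cspg4, to -0.049 without WT replicate 4. With single arrays left out, Acta2 lay between 0.29 and 0.60, Myh11 between -0.37 and 0.061, Cspg4 between -0.049 and 0.30 and the members' median between 0.042 and 0.30. The 6 genes called over all genes became 0 without the filter (857 at an unadjusted p under 0.05), 1 with averaged probe sets, 2 without trend, 10 with array weights, 3 with the spike-in covariate and 0 to 5 with single arrays left out. They became 0 without replicate 1 in both groups (827 at an unadjusted p under 0.05) and 13 without WT replicate 4 and GR KO replicate 1, alternatives chosen after seeing the data. The 5 probe sets called became 3 with quantile normalization, 0 without the filter (1944 unadjusted), 1 without trend, 10 with array weights, 0 to 5 with single arrays left out and 0 without replicate 1 in both groups (1283 unadjusted). With a replicate block, 1 gene and 0 probe sets (753 unadjusted) were called, and no member's call changed. Same-numbered arrays were not treated as pairs, since their deviations correlated at -0.19, 0.18, 0.11 and -0.39 and the labels state no pairing; whether they were handled together is not known. The causes were not tested. Signal near the filter limits Cnn1 and Lmod1.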
